A study of Rattus norvegicus with 8 samples.

Results

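The genes described here are 8 pore-forming subunits of voltage-gated sodium channels, Scn1a, Scn2a, Scn3a, Scn7a, Scn8a, Scn9a, Scn10a and Scn11a, in nuclei of the rat nodose ganglion. They were chosen by gene symbol alone, and all 8 were found among the 30560 genes counted.

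Voltage-gated sodium channels open when the membrane depolarizes and carry the inward current that starts and propagates the action potential. In sensory ganglia, neurons combine channels that the toxin tetrodotoxin blocks (those encoded by Scn1a, Scn2a, Scn3a, Scn8a and Scn9a) with resistant ones (Scn10a and Scn11a), and the combination shapes threshold, firing rate and conduction. Scn7a encodes an atypical relative that responds to extracellular sodium and is known in glia as well as in neurons. Beta subunits, intracellular fibroblast growth factors and ankyrins bind the channels and set their gating and position.

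Nodose ganglia, which hold the cell bodies of vagal sensory neurons, were taken from experimentally naive Long Evans rats, 18 male and 18 female, at 8 weeks of age. Left and right ganglia were kept apart, and the ganglia of 6 rats of 1 sex and side made 1 pool, with 3 pools each for male-left, male-right, female-left and female-right. With 18 rats per sex, left and right pools drew on the same rats, but whether pools with the same number did is not stated in the sources used here. Nuclei were barcoded by combinatorial indexing (Evercode version 2) and sequenced as 8 sublibraries, each holding nuclei of every pool, on a NextSeq 2000.

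The 12 pools held 1738 to 4849 nuclei and 7139364 to 19456287 unique molecular identifiers (UMIs, counts of captured RNA molecules) each, with a median of 2163 to 3626.5 UMIs per nucleus. No barcode name occurred more than once, but each name ends in its sublibrary number, so names could not recur between sublibraries. The summed level of 4 Y-linked genes went against the sex label in 2 pools. Male-left pool 1 had 2.88 counts per 1000000 UMIs (CPM) and female-left pool 1 had 88.6 CPM. The other 5 male-labelled pools had 84.4 to 91.3 CPM and the other 5 female-labelled pools 2.73 to 3.95 CPM. Groups are therefore called male-labelled and female-labelled, and sex comparisons are given with and without both pools. Clustering without any sodium channel gene placed 25705 of 36738 nuclei (70.0%) among neurons, in 23 subclusters of at least 50 nuclei, here numbered n0 to n26. Nodose markers such as P2rx2 and Htr3b named 22745 of them nodose-like. Another 1520, in n9, n24 and n26, carried Prdm12 and other markers of the adjoining jugular ganglion, and 1440 had too few markers of either. The other nuclei included 4601 of satellite glia-like clusters and 1568 of myelinating Schwann cell-like clusters. A level below is the CPM of a gene in the summed UMIs of a class in 1 pool, averaged over pools with at least 20 nuclei of the class. Nuclear UMIs depend on gene length, so a level of one member was not compared with that of another.

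The sequence before the transcription start differed widely between members. The 250 bases are shown for Scn10a and Scn11a, whose levels moved together over neuron subclusters, for Scn8a, which had the most guanine and cytosine, and for Scn7a, the member that was higher in glia. They are from RefSeq on GRCr8, with matches to GGGCGG, the GC box, in capitals on either strand. RefSeq's promoter table matched 7 members, all but Scn1a. Scn10a lies at chr8:128340299-128340548 and Scn11a at chr8:128444719-128444968, both on the minus strand. Scn8a lies at chr7:133860977-133861226 on the plus strand, and Scn7a at chr3:71846285-71846534 on the minus strand.
Scn10a: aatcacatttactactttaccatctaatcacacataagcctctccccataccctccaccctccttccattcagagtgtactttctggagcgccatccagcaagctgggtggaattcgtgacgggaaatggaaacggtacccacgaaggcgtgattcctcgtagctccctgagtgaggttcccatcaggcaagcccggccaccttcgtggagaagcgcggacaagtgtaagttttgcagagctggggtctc
Scn11a: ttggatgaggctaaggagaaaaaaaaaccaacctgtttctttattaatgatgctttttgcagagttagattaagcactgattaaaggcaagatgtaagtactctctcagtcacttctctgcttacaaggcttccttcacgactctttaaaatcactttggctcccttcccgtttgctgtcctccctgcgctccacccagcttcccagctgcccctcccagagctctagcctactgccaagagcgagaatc
Scn8a: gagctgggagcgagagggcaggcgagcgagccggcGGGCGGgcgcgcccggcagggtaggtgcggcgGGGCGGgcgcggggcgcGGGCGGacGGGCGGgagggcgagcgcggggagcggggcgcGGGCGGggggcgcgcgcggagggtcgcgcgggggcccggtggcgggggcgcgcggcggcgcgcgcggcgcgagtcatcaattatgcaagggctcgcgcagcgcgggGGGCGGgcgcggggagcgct
Scn7a: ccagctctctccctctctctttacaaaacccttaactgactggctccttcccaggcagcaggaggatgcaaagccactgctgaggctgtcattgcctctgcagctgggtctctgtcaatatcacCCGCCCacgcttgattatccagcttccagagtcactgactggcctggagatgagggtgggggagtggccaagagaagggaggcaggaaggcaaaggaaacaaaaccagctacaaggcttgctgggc

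The stretch before Scn8a was 86.0% guanine and cytosine, more than in 99.9% of 33465 rat promoters, whose median was 51.2%, and held 6 GC boxes. Scn7a had 56.0% and 1 GC box. Scn10a had 53.2%, Scn9a 52.4%, Scn11a 46.4%, Scn3a 41.6% and Scn2a 39.6%, and none of these 5 held a GC box. Overlapping matches were counted apart, and a GC box was present in 30.5% of all promoter windows of that length. Searched likewise on both strands, TATAAA (12.9% of windows), CCAAT (34.0%) and TAATTA (4.86%) had no match in the windows of the 7 members. Matches are descriptions of letters and were not tested as binding sites.

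Every member was detected in neurons of all 12 pools. Scn1a, which encodes a channel of fast-firing neurons, ranged from 112 to 155 CPM over the pools with a median of 142 (136 ± 16.4, SD, n = 12). Scn2a, a channel of unmyelinated axons and initial segments, ranged from 237 to 291 CPM around 260, and Scn3a, which is prominent in embryonic neurons, from 114 to 147 around 128. Scn8a, the channel of mature nodes of Ranvier, ranged from 169 to 253 CPM with a median of 196. The pools of each of these genes thus lay within a narrow band. Scn9a, a channel that amplifies small depolarizations and is tied to pain sensing, ranged from 1754 to 2210 CPM around 1936. Scn10a, which carries most of the upstroke in many nociceptors, ranged from 1074 to 1329 CPM around 1255. Scn11a, whose persistent current acts near the resting potential, ranged from 238 to 401 CPM around 279, and Scn7a from 1164 to 1456.5 CPM around 1298. The coefficient of variation over pools was 5.74% for Scn7a to 16.9% for Scn11a, against 1.04% to 6.71% over the 8 sublibraries, which split the same pools.

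**Figure D1:**
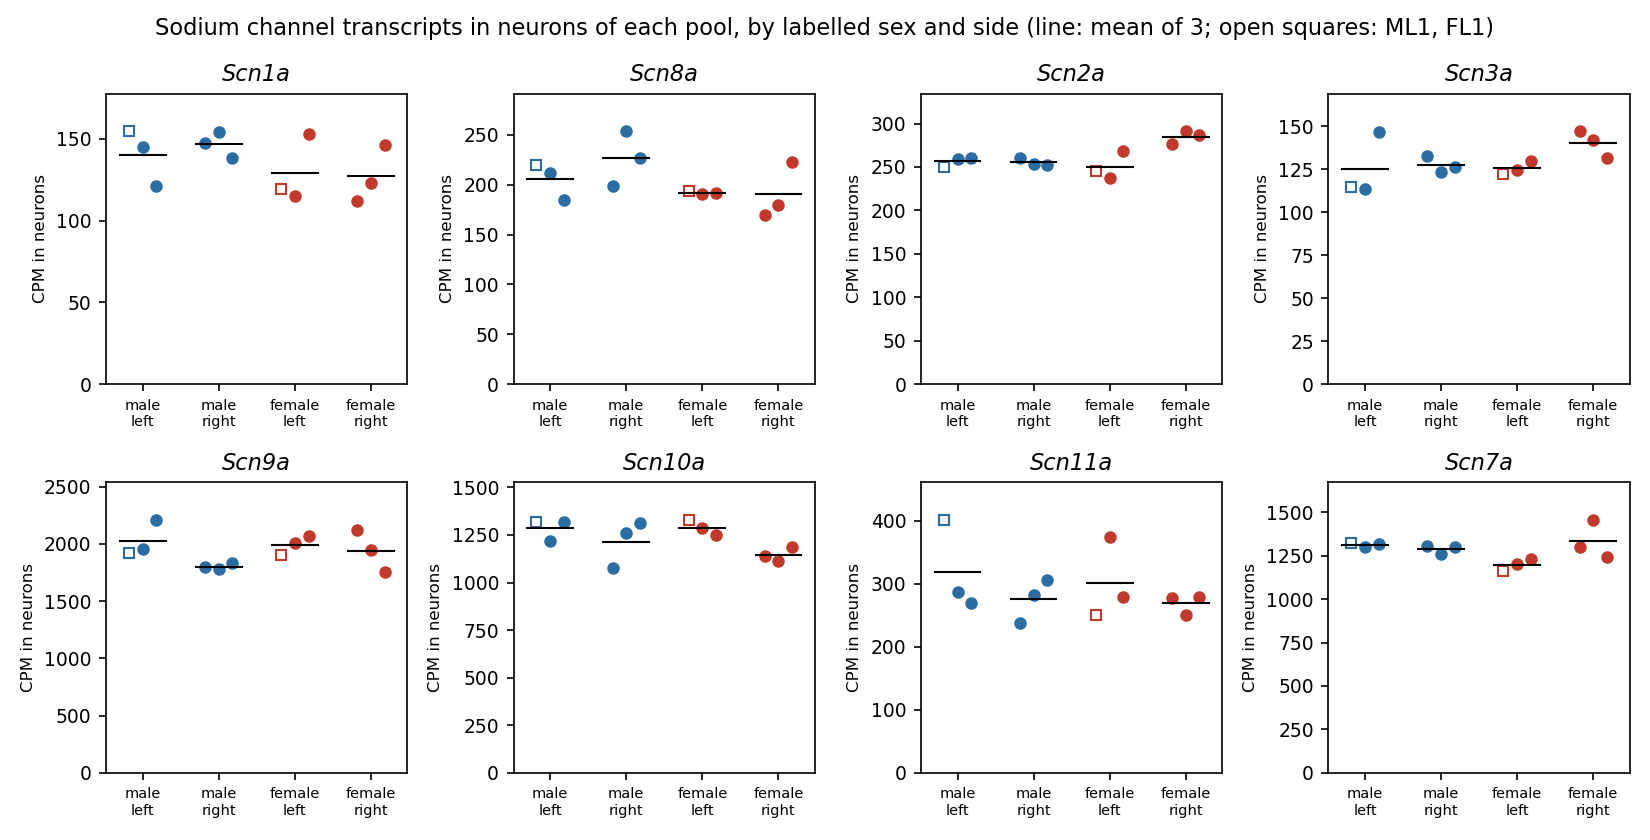
Level of each member in neurons of each of the 12 pools, in CPM, by labelled sex and side; each point is 1 pool, lines are means of 3 pools, open squares are male-left pool 1 and female-left pool 1, and each panel has its own axis from 0. Left and right overlap in each panel, and left pools reach 401 CPM of Scn11a against a highest right pool of 305 CPM.

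The members differed far more between neuron subclusters than between pools. The fold between the highest and the lowest of 22 subclusters was 59.2 for Scn1a, 53.2 for Scn11a and 17.1 for Scn10a. It was 6.86 for Scn8a, 4.67 for Scn2a, 4.18 for Scn3a, 3.81 for Scn9a and 3.64 for Scn7a. Scn1a, Scn10a and Scn11a thus separated the subclusters most and the other 5 were graded. The lowest means behind these large folds were 14.1 CPM for Scn1a, 149 for Scn10a and 31.7 for Scn11a. Endothelial-like nuclei, summed over pools, had 43.8, 219 and 31.3 CPM, so the large folds divide by values near or below background. For each member 0 to 3 of the 21 neighbouring pairs were apart, that is, in the same order in every pool that held both. Most neighbours were not, which is a strict count and no measure of the spread. Scn10a was higher in n6 than in n5 in 11 of 12 pools, and that pair did not count. Scn8a in n12 and n24 counted with only 3 shared pools.

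**Figure D2:**
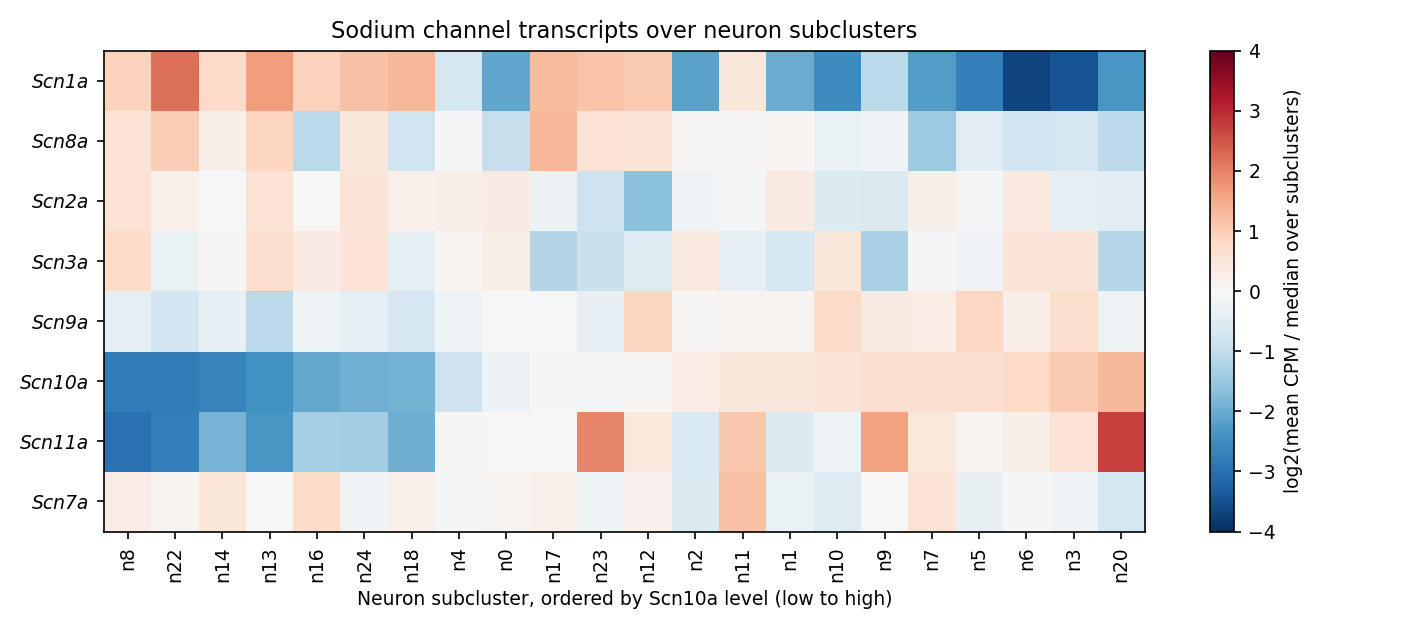
Mean level over pools of each member (rows) in each of 22 neuron subclusters (columns, by rising Scn10a), coloured by log2 of the ratio to the member's median over subclusters. Scn1a is above its median, and Scn10a and Scn11a are below theirs, in n8, n13 and n22 among others. In n0 Scn1a, Scn10a and Scn11a are all below their medians.

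Scn1a was highest in n22, a subcluster led by the receptor subunit gene Gabrg1 together with Syndig1 and Tmem196, at 833 ± 126 CPM (SD, n = 10 pools, 614 to 1018.5). It was 569 ± 80.8 CPM in n13, led by the hair-bundle cadherin gene Pcdh15, and n22 was the higher in 10 of 10 shared pools. In n18, n17, n24, n23 and n12 the means were 448, 434, 408, 399.9 and 370 CPM, with overlapping pools. In n12, led by Spp1, the potassium channel gene Kcna1 and the heavy neurofilament gene Nefh, single pools ran from 152 to 773 CPM with a median of 351, the widest spread of Scn1a over pools. At the other end stood n3, led by Cysltr2, with 16.5 ± 4.96 CPM, and n6, led by Hunk, with 14.1 ± 8.07 CPM (both n = 12). No pool of n3 or n6 exceeded 30.7 CPM. Endothelial-like nuclei, summed over pools, had 43.8 CPM of Scn1a (7 UMIs), so Scn1a in n3 and n6 was not above background RNA. After each nucleus was thinned to 1000 UMIs, 47.3% of n22 nuclei and 1.21% of n6 nuclei had a Scn1a UMI.

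Scn8a was highest in n17, a Prdm12-positive subcluster led by Tafa1, with 560 ± 85.4 CPM (n = 7 pools, 462 to 738). It followed with 442 ± 65.0 CPM in n22 and 409 ± 56.1 CPM in n13, and the pools of these 3 overlapped. The lowest was n7, led by the endothelin gene Edn3, with 81.6 ± 13.6 CPM. Subcluster n12 was again uneven for Scn8a, from 103 to 781 CPM over its 12 pools. Scn8a and Scn1a correlated over subclusters (r = 0.630, n = 23, log2(CPM + 1)), a description of clusters that share libraries.

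Scn2a was lowest in n12, with 82.9 ± 28.9 CPM (n = 12, 36.8 to 126), and next lowest in n23, which was higher in 4 of 4 shared pools. Its upper end was flat: n8 had 387 ± 44.4 CPM, n13 384 ± 45.5 and n6 336 ± 24.5. Scn2a therefore marked 1 subcluster by its low level and none by a high one. Scn3a ran from 205 ± 36.3 CPM in n8 and 195 ± 32.4 in n13 to 53.6 ± 7.04 in n17 and 49.1 ± 22.4 in n9. No neighbouring pair in the order of Scn3a was apart in every pool.

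Scn9a was highest in n12 with 2938 ± 442 CPM, followed by n5 with 2821 ± 235, n10 with 2676 ± 247 and n3 with 2620 ± 145, which overlapped. The step from n3 down to n9, at 2071 ± 197 CPM, held in 11 of 11 shared pools. Scn9a was lowest in n13, at 770 ± 173 CPM (481 to 1124), and n22 had 949 ± 186. Even there the lowest pool had 481 CPM, above the 394 CPM of endothelial-like nuclei summed over pools. Every subcluster mean of Scn9a lay above that level.

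Scn10a was highest in n20, a Prdm12- and Mrgprd-positive subcluster led by Htr4 and Hs6st2, with 2534 ± 209 CPM (n = 5 pools, 2284 to 2832). It was 2167 ± 150 CPM in n3, above n6 at 1792 ± 138 in 12 of 12 pools. The order then fell gradually to n0 at 884 CPM and n4 at 582 ± 69.8 CPM, and n4 was the lower in 12 of 12 pools. Below n4 came a step to n18 at 278 CPM, present in 11 of 11 pools. The 7 subclusters from n18 down (n8, n13, n14, n16, n18, n22 and n24) held 4389 neurons, 17.1% of the total. Their Scn10a over all pools was 157 to 263 CPM, which overlapped the 219 CPM of endothelial-like nuclei, a type that should lack the gene. After thinning, 10.7% of n8 and 9.72% of n13 nuclei had a Scn10a UMI, against 14.3% of 70 endothelial-like nuclei (exact 95% interval 7.07% to 24.7%). Scn10a in n8 and n13 was therefore not distinguishable from background RNA at this depth. In n20 the share was 91.6%. Median UMIs per nucleus before thinning were 2416.5 in n8, 3308.5 in n13, 2169.5 in n20 and 1525 in endothelial-like nuclei.

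Scn11a was also highest in n20, with 1686 ± 198 CPM (1474 to 1931), then in n23 with 980 ± 71.6 and in n9, the Tac1- and Calca-positive jugular-like subcluster, with 758 ± 157. In n11, led by Spon1 and Tmem233, it had 530 ± 57.8 CPM. The lowest were n13 at 49.99 ± 33.6 CPM, n22 at 37.3 ± 17.3 and n8 at 31.7 ± 11.01, close to the 31.3 CPM of endothelial-like nuclei. With 1000 UMIs per nucleus, 77.6% of n20 and 2.36% of n8 nuclei had a Scn11a UMI.

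Among neurons Scn7a was highest in n11, at 2751 ± 171 CPM (2515 to 3025), and the next, n16, had 2063 ± 192. It was lowest in n20, at 755 ± 35.2 CPM (n = 5 pools, 727 to 807). The subcluster with the most Scn10a and Scn11a was thus the one with the least Scn7a. Endothelial-like nuclei, summed over pools, had 901 CPM of Scn7a. That lay above the means of n20, n2 (850 CPM) and n10 (869 CPM). Mural-like nuclei, summed over pools, had 609 CPM, below these means. Depth differed too, with a median of 6315 UMIs per nucleus in n10 and 1525 in the 83 endothelial-like nuclei. Whether Scn7a in n20, n2 and n10 exceeded background RNA thus depended on the reference and was not settled.

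Scn1a and Scn10a took opposite ends of the subclusters. Over the 23 subclusters their log2(CPM + 1) levels had r = -0.775 (Spearman's rho = -0.781). Within single pools r ranged from -0.873 to -0.610 over 17 to 22 subclusters. Scn10a and Scn11a went the same way (r = 0.841, and 0.787 to 0.909 within pools), as did Scn9a and Scn10a (r = 0.757). The subclusters share libraries and depth, so these values describe them and carry no test. In the 7 subclusters below the step Scn1a was 313 to 803 CPM over all pools, Scn11a 31.1 to 157 and Scn9a 769 to 1406. In the 16 above it Scn1a was 14.1 to 449 CPM, Scn11a 163 to 1670 and Scn9a 1386 to 2844. The ranges of Scn11a did not overlap and those of Scn1a and Scn9a did. Subclusters n12, n17 and n23 lay outside the opposition, with Scn1a at 370, 434 and 399.9 CPM and Scn10a above the step.

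**Figure D3:**
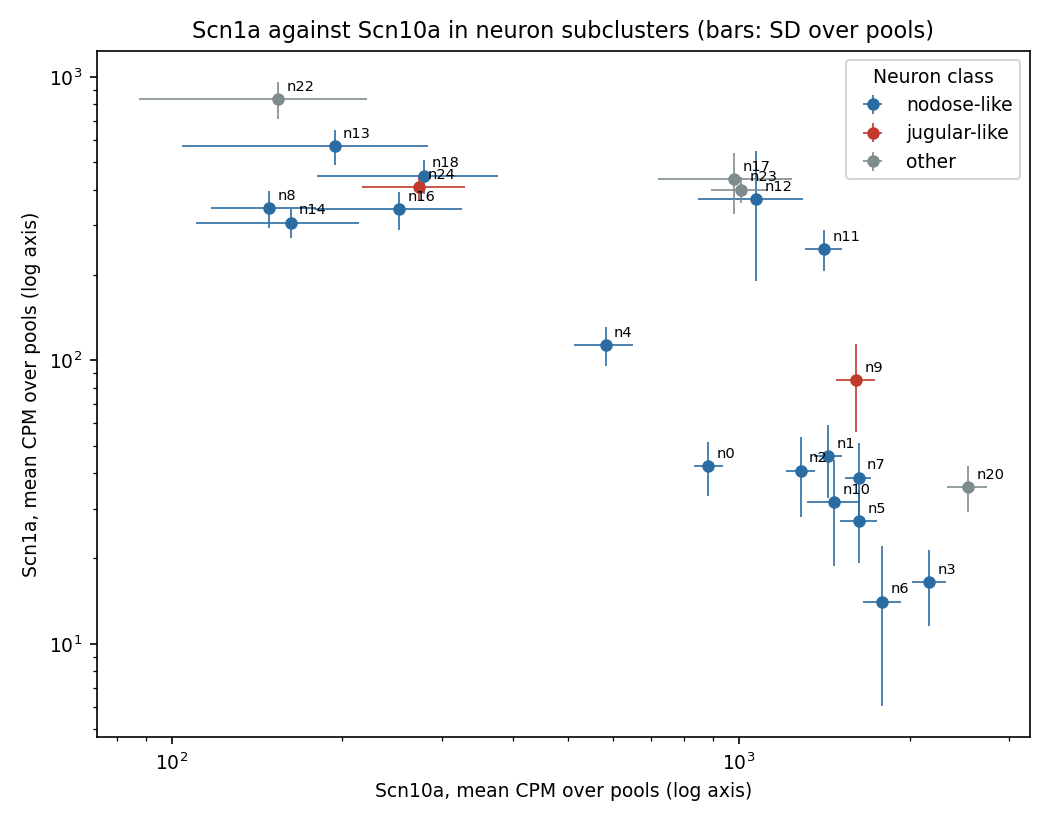
Level of Scn1a against Scn10a in each neuron subcluster (mean over pools, error bars SD, both axes log CPM). The 7 subclusters at the left have Scn1a of 306 to 833 CPM, and n11, n12, n17 and n23 have both transcripts.

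Nuclei with both genes were also counted. Of 24688 thinned neurons, 10.9% had a UMI of Scn1a and 57.6% one of Scn10a (24.6% and 76.3% unthinned). Of the 14232 neurons with a Scn10a UMI, 6.04% also had Scn1a, against 6.94% for the same makeup of subclusters. In n12, 9.91% of 464 nuclei with Scn10a also had Scn1a, against 20.2% of all its 841 nuclei. In n17 the shares were 28.6% and 33.1%, and in n23 31.1% and 32.8%. Nuclei are not replicates, so these shares carry no test. Of the 5314 neurons with Scn11a, 70.1% also had Scn10a, against 66.4% by makeup. The other thinned shares of neurons were 77.5% for Scn9a, 68.2% for Scn7a, 23.8% for Scn2a, 21.5% for Scn11a, 17.5% for Scn8a and 11.2% for Scn3a.

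For each member, 6790 genes with at least 20 CPM on average were ranked by the correlation of log2(CPM + 1) over the 23 subclusters, leaving out other sodium channel genes. Nearest to Scn1a were Atp2b2, a plasma membrane calcium pump (r = 0.978), an unnamed gene ENSRNOG00000065736 (0.896) and Sesn3 (0.892). Nearest to Scn8a were Atp8a2 (0.774) and Adam23 (0.764). The genes most like Scn9a were Ncoa7 (0.935), Ankrd46 (0.901) and A3galt2 (0.892), and those most like Scn10a were Galnt10 (0.923), Eml1 (0.854) and Trarg1 (0.848). Scn11a was followed by Dpysl4 (0.852), the homeobox gene Isl2 (0.842) and Igsf3 (0.831). Scn2a was followed by Armh3 (0.924), Tango2 (0.906) and Pdss1 (0.900). The nearest genes of Scn3a, Fam20c (0.788), Itsn1 (0.765) and Sptb (0.758), and of Scn7a, Creb5 (0.774), Pcp4 (0.744) and ENSRNOG00000030622 (0.722), were less alike.

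Jugular-like neurons, whose ganglion arises from the neural crest while nodose neurons come from placodes, were compared with nodose-like neurons of the same pools. Of the 8 members 2 were higher and 2 lower, and 4 did not pass (edgeR's quasi-likelihood test with Benjamini-Hochberg adjustment over 11624 genes, pool as a block, 11 pools). Of all genes tested, 33.6% were called (17% higher and 16.6% lower). Most other genes tested could be used by the clustering that made the classes, and the members could not, so this share is background only. Scn11a ranged from 436 to 891 CPM in jugular-like neurons, with a median of 745, and from 210 to 274 CPM in nodose-like neurons, around 245. The pools did not overlap, and the log2 fold change was 1.58 (SE 0.06, adjusted p = 1.3e-27, higher in 11 of 11 pools). Scn10a ranged from 1305 to 1775 CPM against 1082 to 1341, a log2 fold change of 0.31 (SE 0.05, adjusted p = 9.8e-08, 11 of 11). Scn3a was lower, at 7.78 to 95.6 CPM against 124 to 152, with no overlap (log2 fold change -1.11, SE 0.10, adjusted p = 6.9e-14, lower in 11 of 11). Scn2a was lower too, at 148 to 252 CPM against 245 to 295 (log2 fold change -0.49, SE 0.06, adjusted p = 1.7e-09, lower in 10 of 11). The log2 fold changes of Scn1a (-0.04), Scn7a (-0.04), Scn9a (0.06) and Scn8a (0.10) missed the threshold. The median log2 fold change of the 8 members was 0.01, against 0.00 over all genes.

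Of the 1520 jugular-like nuclei 1281 belonged to n9, so the calls mainly describe that subcluster. The 182 nuclei of n24 went the other way for each member called. Over 3 pools n24 had means of 95.1 CPM for Scn11a, 273 for Scn10a, 176 for Scn3a and 366 for Scn2a. The 57 nuclei of n26, summed over pools, went with n9, at 913, 1498, 41.8 and 230 CPM in that order. The outcome for some members also turned on which clusters were named jugular-like. With sodium channel genes allowed in the clustering, 1813 nuclei were named jugular-like, and Scn1a was higher in them (log2 fold change 1.62, edgeR adjusted p = 3.5e-14). At first-level resolution 2, with 2402 such nuclei, its log2 fold change was 2.04 (adjusted p = 6.6e-19), while that of Scn10a was -0.11 (adjusted p = 0.128). Scn8a and Scn7a were then also called higher: Scn8a had 0.50 (adjusted p = 9.7e-06) with the sodium channel genes and 0.95 (adjusted p = 3.7e-13) at resolution 2, and Scn7a 0.28 (adjusted p = 1.8e-05) and 0.26 (adjusted p = 2.6e-05). Scn9a had -0.09 and -0.11, neither of them called. Scn11a, Scn3a and Scn2a kept their direction and their call in both.

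**Figure D4:**
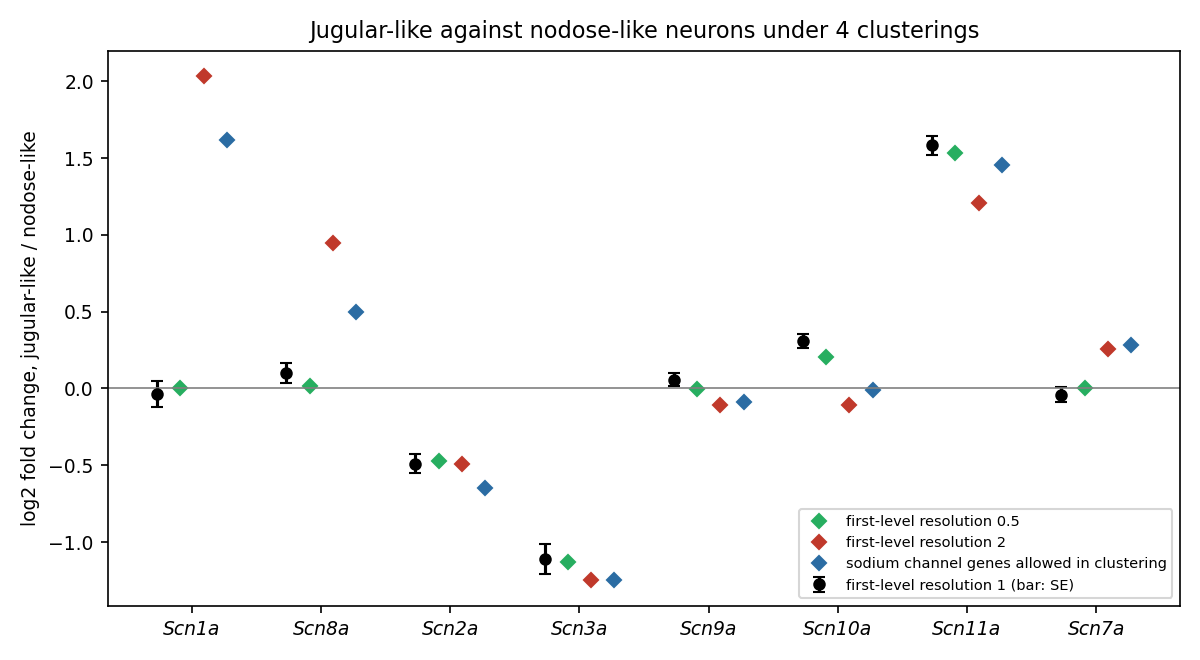
Log2 fold change of each member in jugular-like over nodose-like neurons by edgeR, at first-level resolution 1 (bar: SE) and under the other clusterings. Scn11a lies above 0 and Scn3a and Scn2a below it in all of them, whereas Scn1a moves from -0.04 to 2.04.

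Of 24 related genes, 23 were tested in this comparison, and 11 were higher and 6 lower in jugular-like neurons. Those that are not sodium channel genes could be used by the clustering, so their calls only describe the classes. Tmem233 was among the leading genes of the jugular-like n26. Those with the smallest p included Tmem233, a membrane protein that associates with sodium channels (log2 fold change 3.69), Fgf14, which binds the channel's C terminus (-1.85), the axonal adhesion gene Cntn1 (1.68) and the beta subunit Scn4b (2.00). Scn2b (0.46) and the muscle channel Scn4a (2.15) were higher, and Scn3b (-0.11) missed the threshold. Scn4a was at most 16.3 CPM in any pool of either class.

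Satellite glia, which wrap the neuron somata, had more Scn7a than neurons and less of the other 7 members. All 8 passed edgeR's test with Benjamini-Hochberg adjustment over 12300 genes (pool as a block, 12 pools), where 71.9% of genes were called (36.6% higher and 35.3% lower). Scn7a was 2236 to 3085 CPM over the pools of satellite glia, with a median of 2435, above 1164 to 1456.5 CPM in neurons without overlap. Its log2 fold change was 0.79 (SE 0.04, adjusted p = 6.2e-19, higher in 12 of 12 pools). Scn10a was lower (log2 fold change -1.58, SE 0.04, adjusted p = 2.8e-24), with 389 to 545 CPM in satellite glia, as was Scn11a (-1.52, SE 0.05), with 86.9 to 156 CPM. Scn2a had -1.30, Scn8a -1.11, Scn3a -1.02 and Scn9a -0.97. The order among these members turned on the clustering: at first-level resolution 2 Scn2a had -2.06, against -1.87 for Scn10a and -1.77 for Scn11a. Scn1a was lower by less than the others, at 83.1 to 198 CPM against 112 to 155 (log2 fold change -0.33, SE 0.07, adjusted p = 7.4e-05). Its pools overlapped, and 4 of 12 had the higher CPM in glia. The median over members was -1.07, against 0.03 over all genes. Log2 ratios of plain CPM lay 0.12 to 0.22 above these fitted values, since the fit normalises for RNA composition.

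Neuronal RNA was plentiful in the glial clusters. The 11 neuron markers, none of them at 0, summed to 7330 to 9886 CPM over pools in satellite glia against 7607 to 10017 CPM in neurons. Snap25 in satellite glia was at 71.8% and Elavl4 at 51.3% of the neuronal level of the same pool. The members other than Scn7a were at 37.5% (Scn10a) to 92.9% ± 21.6 (Scn1a, SD, n = 12). Scn7a was at 193%. The part of neuronal RNA in the glial levels was not tested.

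Myelinating Schwann cell-like nuclei carried the trend further. Against satellite glia Scn7a was higher again, at 4239 to 6206 CPM with a median of 4966 (log2 fold change 1.08, SE 0.06, edgeR adjusted p = 8.7e-28, 12 of 12 pools, no overlap). The other 7 members were all lower, from -0.94 for Scn2a to -1.51 for Scn8a, in a comparison that called 62.2% of 8034 genes (31.2% higher and 31% lower). Scn1a ranged from 27.7 to 81.6 CPM there (log2 fold change -1.38, SE 0.11) and Scn8a from 16.7 to 50.4 CPM. At first-level resolution 0.5 the sizes shrank, to -0.53 for Scn3a, -0.50 for Scn10a and for Scn11a, -0.86 for Scn8a and -0.66 for Scn9a, all still called. The call for Scn2a was lost at first-level resolutions 0.5 (log2 fold change -0.14, adjusted p = 0.313) and 2 (-0.13, adjusted p = 0.368). The neuron markers summed to 2275 to 4191 CPM in these nuclei, and the 7 members other than Scn7a were at 15.96% (Scn10a) to 33.8% (Scn1a) of their neuronal level. Scn7a was at 391.8%.

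Within the glia Scn7a was uneven. In g11, a Schwann cell-like cluster led by the glutamate receptor gene Grin2b, Adarb2 and Prkcq, it reached 7042 ± 752 CPM (SD, n = 9 pools, 6086 to 8269). In g1, an unnamed cluster with the same leading genes, it was 6515 ± 1017 CPM (n = 12, 5282 to 8755). The Schwann cell-like clusters g3 and g4, led by Prx, Bcas1 and Il16 among others, had 4066 ± 533 and 3745 ± 423 CPM, below every pool of g11. After thinning, 99.7% of g11 and 99.4% of g1 nuclei had a Scn7a UMI, against 68.2% of neurons.

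**Figure D5:**
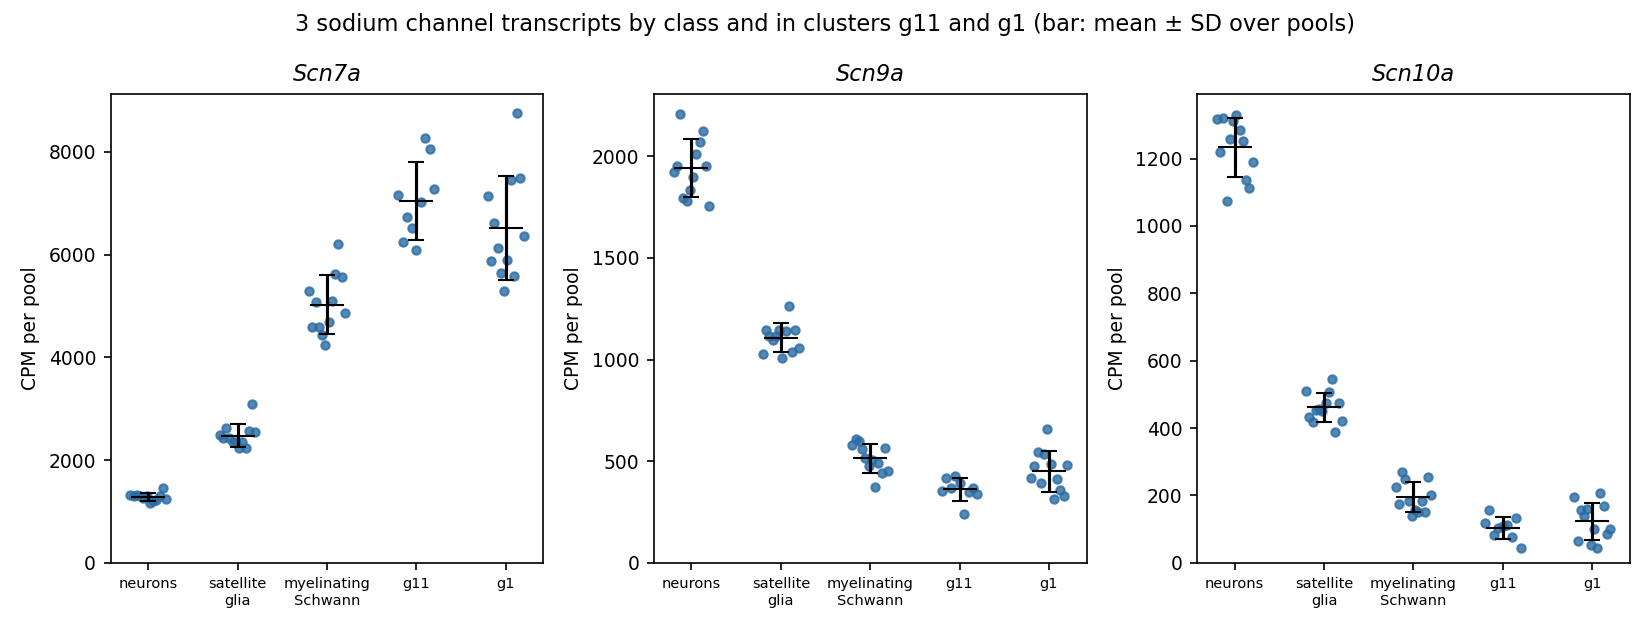
Levels of Scn7a, Scn9a and Scn10a in CPM (y axes from 0) in neurons, satellite glia, myelinating Schwann cell-like nuclei and clusters g11 and g1; each point is 1 pool and the bars are the mean ± SD. Scn7a climbs from a mean of 1284 CPM in neurons to 2474 and 5022 CPM in the glial classes, while Scn9a and Scn10a are highest in neurons.

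The related genes mostly went down with the 7 members. Here too, those that are not sodium channel genes could be used by the clustering, as could most genes behind the shares called between classes. Their calls therefore only describe the classes. In satellite glia against neurons 5 were higher and 17 lower of 23 tested, with a median log2 fold change of -0.50. The 5 with the smallest p were the ubiquitin ligase gene Nedd4l (-1.36), Fgf12 (-1.58), the node adhesion gene Nrcam (-0.92), the ankyrin gene Ank2 (-0.86) and the sodium leak channel Nalcn (-0.995). Among the beta subunits Scn3b (-0.31) and Scn4b (-0.31) were lower, and Scn2b (-0.05) did not pass. Scn4a (-0.56) was lower. In Schwann cell-like nuclei against satellite glia 3 were higher and 17 lower of 22 tested. By p these were led by Ahnak (1.16) and the nodal ankyrin Ank3 (1.22), which were higher, and by Cntn1 (-1.75), Ank2 (-0.97) and Fgf13 (-1.43), which were lower. The beta subunits Scn2b (-1.41), Scn3b (-1.48) and Scn4b (-0.93) were lower there, while Scn4a was not tested.

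No member differed between left and right neurons past the threshold. EdgeR with Benjamini-Hochberg adjustment over 13998 genes called 0 of 8 members. Before adjustment 1 had a p under 0.05, and with DESeq2 none passed (0). Over all genes 0.107% were called. Scn10a was nearest in p, with left pools at 1221, 1301 and 1329 CPM (lowest, median, highest) and right pools at 1074, 1163 and 1311. The log2 fold change, right over left, was -0.14 (SE 0.05, edgeR adjusted p = 0.656), and the sides overlapped. Scn11a (-0.20, adjusted p = 0.772) and Scn9a (-0.11, adjusted p = 0.756) had the same sign. Over the 15 subclusters present in every pool the right mean was below the left in 13 for Scn11a, 10 for Scn10a and 10 for Scn9a. It was above the left in 13 for Scn7a and 11 for Scn8a. The subclusters come from the same pools, so these counts are not independent and carry no test. The makeup of the neurons also differed by side. Subcluster n4, whose Scn10a was 582 CPM, made up 2.77% to 5.75% of neurons in left pools and 7.19% to 9.23% in right pools. Its part in the Scn10a values was not tested.

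None of the 23 related genes tested was called by side in neurons, 3 being under 0.05 before adjustment, and DESeq2 was read for the members only.

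Between labelled sexes, too, 0 of 8 members were called in neurons by edgeR and by DESeq2, 2 being under 0.05 before adjustment, where 0.486% of genes were called (68 genes, and 0 to 620 with 1 pool left out). Scn8a had 169, 191 and 223 CPM in female-labelled pools and 185, 216 and 253 in male-labelled ones (lowest, median, highest). Its log2 fold change, female-labelled over male-labelled, was -0.19 (SE 0.07, edgeR adjusted p = 0.153), and the groups overlapped. Without the 2 pools that went against their label edgeR again called 0 of 8 members, and the ranges of Scn8a were 169 to 223 and 185 to 253 CPM. Scn1a had a log2 fold change of -0.18 (SE 0.08, edgeR adjusted p = 0.212). No related gene was called. The interaction of side and labelled sex was called for 0% of 13998 genes by edgeR, members included, with 551 genes under 0.05 before adjustment and 0 called by DESeq2. The nearest member was Scn2a, with an interaction of 0.20 (SE 0.08, edgeR adjusted p = 1.00).

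In glia no member was called by side or labelled sex under edgeR or DESeq2. In satellite glia 0% of 10198 genes were called by side, 498 being under 0.05 before adjustment, and 0.0196% by labelled sex. Scn1a was nearest, with 83.1, 107 and 142 CPM in female-labelled and 102, 136 and 198 CPM in male-labelled pools (lowest, median, highest), which overlapped. Its log2 fold change by edgeR was -0.36 for labelled sex (SE 0.11, adjusted p = 0.322). For side, right over left, it was -0.32 (SE 0.11, edgeR adjusted p = 0.820). Without the filter on low counts Scn1a passed for labelled sex (adjusted p = 0.0209). In Schwann cell-like nuclei 0.049% of 6126 genes were called by side and 0% by labelled sex, 334 being under 0.05 before adjustment. Scn7a had a log2 fold change of 0.19 for labelled sex there (edgeR adjusted p = 0.807). Without both pools that went against their label, edgeR called 26 of 9989 genes by labelled sex in satellite glia, against 2 with all pools. In Schwann cell-like nuclei it called 15 of 5836, against 0 with all pools. No member was among them.

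Scn3a also had a high level outside neurons and these glia. In g5, an unnamed cluster led by the vascular genes Adgrf5, Adgrl4, Abcg2 and Emcn, Scn3a was 248 ± 86.7 CPM (SD, n = 9 pools), against 129 ± 11.1 in neurons. By the fixed marker lists g5 was closest to mural cells, with 7 of their markers. In mural-like nuclei it was 169 ± 12.4 CPM (n = 2 pools). After thinning 23.7% of g5 nuclei had a Scn3a UMI, against 11.2% of neurons.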

How the data were processed

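UMI counts per gene and nucleus were used as deposited by the authors, as raw whole-number counts, with a nucleus table that gave the pool of each nucleus. Per the submitters' processing notes, R 4.3.2 and Seurat 4.1.3 and the build mRatBN7.2 were used; the aligner and the counting settings are not given there. No column of per-sample values was left unused (0).

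Of 36741 nuclei, 36740 passed a floor of 300 genes and a ceiling of 5% mitochondrial UMIs. The doublet caller marked 2, so it cannot be relied on; removal of the 5% with the highest scores was an alternative. Clustering (scanpy 1.11.5, Leiden, resolution 1, 30 components, no sodium channel gene among variable genes) was followed by a second level, at resolution 2 for other nuclei. Naming rules and that resolution were settled after clusters were seen. A name needed 3 fixed markers at 2-fold. Summed counts per pool and class with at least 20 nuclei were tested with edgeR 4.0.16 (TMM, filterByExpr, quasi-likelihood, Benjamini-Hochberg over all genes, 0.05), with DESeq2 1.42.0 as an alternative; the edgeR script was tested on simulated data. Pools are the replicates. Intervals are exact binomial and cover counting error only. The members and lists were chosen with earlier results of these data known. Named are the members, the 3 genes most like each, the 5 related genes with the smallest p among those called per comparison, Scn4a and the beta subunits; some genes this rule names are not reported here. Genes named as leading a cluster describe it, and Scn3a outside neurons was chosen after its values were seen. The labels do not state that a shared pool number marks shared rats, so the block by number is an alternative.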

Additional observations from a re-analysis of the deposited data

Results flagged for a closer look

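In 96 groups of 6 pools, 5 held a pool that lay apart from the rest by Dixon's criterion, about as many as chance gives (1 in 20). Female-right pool 2 had the highest Scn7a of the right pools both in neurons, at 1456.5 CPM (next 1308), and in satellite glia, at 3085 CPM (next 2571). That pool had 50.5% neurons, 18.5% satellite glia, 7.66% Schwann cell-like and 8.91% skeletal muscle-like nuclei; the part of this makeup in its Scn7a was not tested. In satellite glia female-left pool 3 had 155 CPM of Scn2a (next female-labelled pool 128). In Schwann cell-like nuclei male-left pool 2 had 71.0 CPM of Scn3a (next male-labelled pool 38.4). In neurons female-left pool 2 had 375 CPM of Scn11a (next female-labelled pool 279).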

How the results depend on the processing

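Counts of members called were 0 in the comparisons by side, labelled sex and their interaction under every alternative run, each pool left out included, apart from 1 (Scn1a) for labelled sex in satellite glia without the filter on low counts. The replicate block, which ties left and right pools of the same number, called 0 members in neurons, satellite glia and Schwann cell-like nuclei. Deviations of same-numbered left and right pools from their group means correlated above 0.1 in 1 of 6 pairs (neurons, across 6714 genes). That pair was male-left and male-right pool 2 (r = 0.434), and 1 of 6 left pools was closest to its own number. Male-left pool 1 and female-left pool 1 differed in Y-linked level from their same-numbered right pools, so their pairs could not show shared rats. The check therefore did not settle the pairing, and the numbers were not taken to pair the pools. Of jugular-like against nodose-like neurons, 3 members reversed and Scn8a gained a call with the clustering. With sodium channel genes allowed, Scn1a had a log2 fold change of 1.62, Scn7a 0.28, Scn10a -0.0081 and Scn8a 0.50; at first-level resolution 2 these were 2.04, 0.26, -0.11 and 0.95, and the cause was not tested. Scn9a, not called in any, went from 0.06 to -0.09 and -0.11. Of 555 alternatives for levels, 552 moved by less than 1 SD. The other 3 came from clustering with the sodium channel genes: 982 CPM for Scn1a and 708 CPM for Scn8a in the highest subcluster, and 97.4 CPM for Scn2a in satellite glia. Shares of neurons with a UMI depend on depth by construction and were, unthinned, 24.6% for Scn1a, 54.8% for Scn2a, 32.5% for Scn3a, 90.3% for Scn7a, 43.2% for Scn8a, 92.4% for Scn9a, 76.3% for Scn10a and 47.4% for Scn11a. Counts over all genes moved more than those of members: by side in neurons 15 genes were called, against 61 by DESeq2, 52 without the filter, 3 without the 2 pools whose Y-linked genes went against their label 9 with the block and 4 to 16 with 1 pool left out; by labelled sex 68, against 496, 707 and 44 under the first 3 of these, 9 with sodium channel genes in the clustering, 11 at first-level resolution 0.5 and 0 at resolution 2. Labelled sex gave 0 genes without any 1 of male-left pool 2, male-right pools 2 and 3, female-left pools 2 and 3 and female-right pool 1, and up to 620 (without male-right pool 1).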
